A study of Saccharomyces cerevisiae with 24 samples.

Results

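The genes described here are 176 small open reading frames (ORFs) of budding yeast, Saccharomyces cerevisiae, each carried on a barcoded high-copy plasmid of the MoBY 2.0 library. They were chosen by their systematic names, which end in a hyphen and a letter, as in YLR285C-A. Such names belong to 182 of the 4871 rows of counts, and 6 of them were set aside and counted with the other rows, which left 176. The other 4695 rows were the genes they were compared with. Plasmid barcodes were sequenced in 4 diploid strains, each after 10 generations in rich medium (YPD) with 0.7 M NaCl (Gen10) and before that growth (Gen0), in biological triplicate, for 24 libraries in 8 groups of 3. BY4743 is a laboratory strain that carries deletions in HIS3, LEU2 and URA3 and is heterozygous at LYS2 and MET15. The others are wild isolates, BC187 of a vineyard lineage, YPS128 of a North American oak lineage and NCYC3290 of a West African lineage. All cultures were grown with G418, the drug that selects for the plasmid, and all inserts came from the reference strain S288C with their own flanking DNA. Per the study's text the wild strains hold fewer copies of the plasmid per genome than BY4743, so copy number and strain cannot be told apart in any contrast with BY4743.

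A letter suffix marks a gene that was added to the yeast annotation after the chromosomes had been numbered, most often because the ORF was too short for the first gene finders. Short yeast proteins include subunits of the respiratory chain and of the proton-driven ATP synthase, chaperones of mitochondrial import, ribosomal proteins, regulators of membrane pumps and many ORFs with no assigned role. In a pooled competition, a barcode gains share when cells with that plasmid outgrow the rest of the library and loses share when they lag or keep fewer copies of it. Each value is therefore relative to the library in that strain.

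Of the 176 genes, 172 were found in the R64 annotation of the S288C genome, and 4 were not (YAL016C-B, YOL013W-A, YMR013W-A and YPR108W-A). Of the matched genes, 89 had a gene symbol and 83 were listed under the systematic name only. The median coding length was 219 bases, from 78 to 1593, and 143 genes were no longer than 300 bases, against 66 of 4692 other rows with a length, whose median was 1230 bases. In 19 genes the coding sequence lay in more than 1 piece, and 8 genes overlapped another annotated gene. Base composition was alike, with a median GC content of 39.28% in the suffix genes and 39.79% in the others. Some short ORFs behind large or shared changes are printed below from the R64 reference, with the start and stop codons in capitals. Longer genes with such changes, LSB3 (1380 bases), MRPL15 (762) and YKL033W-A (711), are not printed. Nor is RPL43B, whose coding sequence lies in 2 pieces. The printed ORFs show how short some of these genes are, while the inserts also hold flanking DNA that is not shown. YLR285C-A (chromosome XII, 708168 to 708338, minus strand), YBL071C-B (chromosome II, 89458 to 89556, minus), LSM3 (chromosome XII, 1013909 to 1014178, minus) and COX19 (chromosome XII, 108676 to 108972, minus) were higher at Gen10 in at least 2 strains. RPL41B (chromosome IV, 221724 to 221801, minus), YAR035C-A (chromosome I, 192337 to 192417, minus) and YNL042W-B (chromosome XIV, 547113 to 547370, plus) were lower in at least 2 strains. Each printed ORF is a single-exon coding sequence.
YLR285C-A: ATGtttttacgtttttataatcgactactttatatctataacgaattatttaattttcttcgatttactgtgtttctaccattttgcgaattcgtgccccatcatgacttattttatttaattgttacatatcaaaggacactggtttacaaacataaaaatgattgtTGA
YBL071C-B: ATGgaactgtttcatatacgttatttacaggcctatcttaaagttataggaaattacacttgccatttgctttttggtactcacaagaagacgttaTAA
LSM3: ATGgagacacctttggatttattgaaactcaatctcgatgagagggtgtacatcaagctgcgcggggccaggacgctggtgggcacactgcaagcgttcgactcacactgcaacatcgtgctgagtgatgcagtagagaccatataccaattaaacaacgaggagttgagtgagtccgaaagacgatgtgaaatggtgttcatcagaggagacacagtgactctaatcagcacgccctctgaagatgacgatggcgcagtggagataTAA
COX19: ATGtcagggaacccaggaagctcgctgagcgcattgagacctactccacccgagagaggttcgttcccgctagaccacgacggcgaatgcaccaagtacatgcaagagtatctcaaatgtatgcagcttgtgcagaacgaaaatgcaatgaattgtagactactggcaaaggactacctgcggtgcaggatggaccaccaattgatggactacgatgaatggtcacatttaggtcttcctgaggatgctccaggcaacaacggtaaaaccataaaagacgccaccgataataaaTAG
RPL41B: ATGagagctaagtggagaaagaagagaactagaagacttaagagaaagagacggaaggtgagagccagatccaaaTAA
YAR035C-A: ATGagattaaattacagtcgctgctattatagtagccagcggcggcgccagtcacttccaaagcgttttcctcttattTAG
YNL042W-B: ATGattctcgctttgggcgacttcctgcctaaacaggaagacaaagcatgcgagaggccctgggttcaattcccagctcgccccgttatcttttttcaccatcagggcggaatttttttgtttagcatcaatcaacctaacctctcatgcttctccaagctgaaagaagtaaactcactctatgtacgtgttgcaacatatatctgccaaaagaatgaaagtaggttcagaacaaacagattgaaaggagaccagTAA

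The libraries held between 4615027 and 30699608 reads. A few barcodes outside this set took most reads of the Gen10 libraries of NCYC3290 and YPS128, so values are normalised reads, that is reads per 1000000 of the total over rows that stayed at or under 50000 reads in every library. No suffix gene passed that limit. In those libraries the median suffix gene had between 19.5 and 145.5 reads in NCYC3290 and between 232 and 858.5 in YPS128 at Gen10, against at least 1678.5 in every Gen0 library of the 4 strains. The biological coefficient of variation, the spread of replicates beyond counting error, was 0.855 in NCYC3290 and 0.539 in YPS128, and 0.126 in BY4743 and 0.11 in BC187. In all, 14 of the 176 genes (7.95%) had 0 reads in all 24 libraries, against 12.1% of the other rows, and were not tested. Of the rest, 161 were tested in at least 1 strain and 153 in all 4. The genes without reads included VMA9, KSH1, MTW1 and SBH1.

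The first comparison asked how plasmids of the suffix genes moved during growth in salt, relative to the other plasmids. In BY4743, 54 of 160 suffix genes tested were higher and 11 were lower at Gen10 at a false discovery rate (FDR) under 0.05 by edgeR's quasi-likelihood test, where 18.2% of all genes tested were called higher and 19.5% lower. In shares, 33.8% of the suffix genes were higher, against 17.6% of the other genes, and 6.88% were lower, against 20.02%. In BC187, 76 of 155 were higher and 29 lower, with 28.5% of all genes called higher and 38.1% called lower. The shares in BC187 were 49.0% higher, against 27.7% of the other genes, and 18.7% lower, against 38.9%. In both strains a suffix gene was thus called higher more often than another gene and lower less often, as a description with no test over the list.

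In the other pair of strains the calls depended on how libraries were scaled. In NCYC3290, 1 of 158 suffix genes was higher and 29 were lower, with 1.89% of all genes called higher and 26.1% lower. The shares of suffix and other genes called lower were 18.4% and 26.4%. In YPS128, 7 of 156 were higher and 4 lower, with 4.11% of all genes called higher and 8.47% lower. The shares of suffix and other genes called lower were 2.56% and 8.70%. With library sizes from all reads, 1 suffix gene was higher and 148 lower in NCYC3290, and 0 were higher and 149 lower in YPS128. With TMM factors the counts were 3 higher and 9 lower in NCYC3290 and 21 higher and 3 lower in YPS128, and with DESeq2's size factors 50 higher and 19 lower, and 39 higher and 11 lower. The median of all genes tested moved with them, at -1.58 in NCYC3290 and -0.56 in YPS128 under the scaling used here, 0.48 and 0.056 with TMM, 0.75 and 0.066 with DESeq2 and -5.37 and -3.65 with all reads. Directions of single genes in NCYC3290 and YPS128 are therefore relative to this scaling. Scaling moves suffix genes and other genes by about the same amount, so the difference between them depends little on it by construction.

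That difference was positive in each strain. The median log2 fold change of the suffix genes, Gen10 over Gen0, was 0.20 in BY4743, against 0.0072 for the other genes, and 0.17 in BC187, against -0.061. It was -1.17 in NCYC3290, against -1.60, and -0.18 in YPS128, against -0.58, and TMM and DESeq2 scaling turned the suffix genes' own medians positive in both of these strains. Taken per Gen10 library, the median of the suffix genes exceeded that of the other genes by 0.195 ± 0.0974 for BY4743, 0.241 ± 0.0356 for BC187, 0.854 ± 0.494 for NCYC3290 and 0.504 ± 0.149 for YPS128 (mean ± SD, n = 3 libraries, on the log2 scale with a pseudocount of 1 normalised read). All 12 Gen10 libraries had a positive difference, from 0.12 to 1.42. Suffix genes also spread less, with an SD of log2 fold changes of 0.50 against 0.80 among the other genes for BY4743, 0.63 against 1.36 for BC187, 2.18 against 2.29 for NCYC3290 and 1.10 against 1.49 for YPS128.

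**Figure D1:**
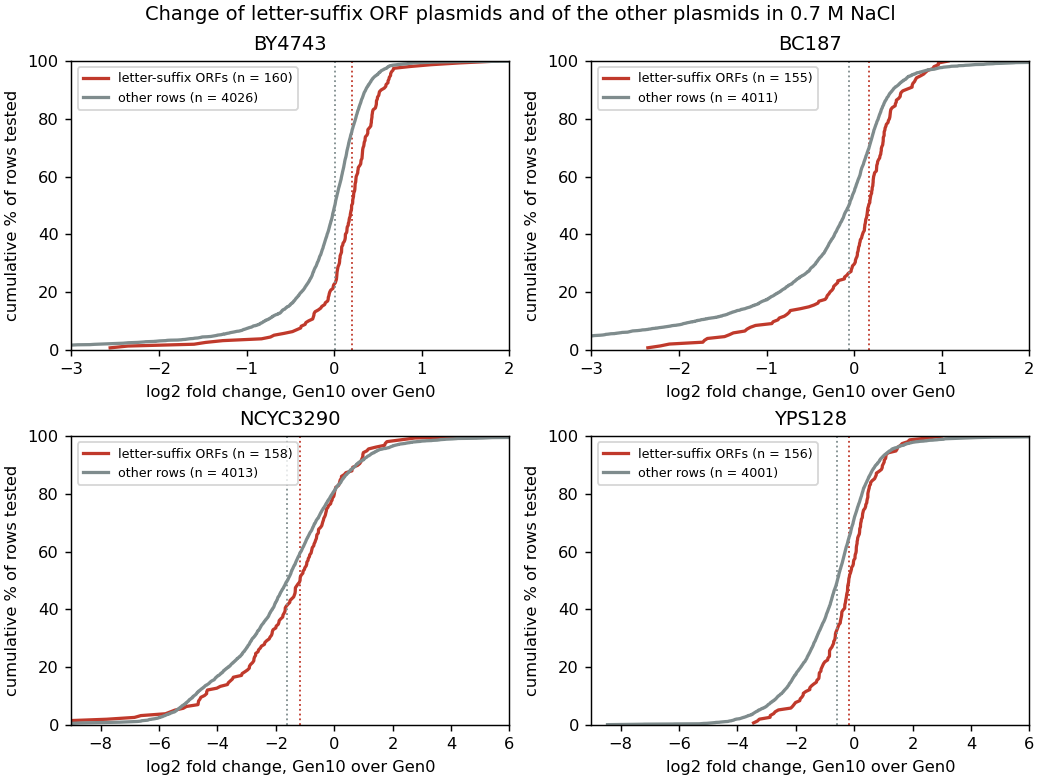
Cumulative percent of tested rows (vertical axis) by log2 fold change, Gen10 over Gen0 (horizontal axis), in each strain, for letter-suffix ORFs (red) and other rows (grey), with dotted lines at the medians. The red curve lies right of the grey one around the median in each strain, at medians of 0.20 and 0.0072 in BY4743, and the negative medians of NCYC3290 and YPS128 turned positive with TMM and DESeq2 scaling.

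The suffix genes' share of the scaling total, which leaves out the rows over 50000 reads, was higher at Gen10 in 3 strains. Suffix genes together held 4.46%, 4.02% and 3.97% of the scaling total in the 3 Gen10 libraries of BY4743, against 3.62%, 3.60% and 3.61% at Gen0. In BC187 they held 4.17%, 4.23% and 4.19% at Gen10, against 3.70%, 3.71% and 3.77% at Gen0, and in YPS128 4.59%, 4.26% and 5.15% at Gen10, against 3.83%, 3.80% and 3.85%. The groups did not overlap in these strains, but in NCYC3290 they did. There the share was 4.77%, 3.46% and 5.57% at Gen10, against 3.77%, 3.80% and 3.90% at Gen0. One gene, YLR285C-A, held 1.61%, 1.47% and 1.84% of the NCYC3290 Gen10 totals, and without it the suffix genes held 3.16%, 1.996% and 3.73%. Of all reads the suffix genes held less at Gen10 in the 2 strains where a few barcodes took most reads, with 0.429%, 0.704% and 0.424% in YPS128, against 3.79%, 3.77% and 3.82% at Gen0, and 0.207%, 0.376% and 0.409% in NCYC3290, against 3.74%, 3.76% and 3.86%.

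Length moved with the change among the other genes too. In BC187 the median log2 fold change of other genes was 0.19 for lengths over 150 and up to 300 bases, 0.080 up to 600, 0.061 up to 1200, -0.13 up to 2400 and -0.78 over 2400 bases. In BY4743 the same classes gave 0.091, 0.14, 0.083, -0.037 and -0.37. Among ORFs of at most 300 bases, the suffix genes and the other genes had medians of 0.18 (n = 124) and 0.18 (n = 59) in BC187, 0.21 (n = 130) and 0.15 (n = 59) in BY4743, -1.16 (n = 128) and -1.50 (n = 59) in NCYC3290, and -0.090 (n = 125) and -0.51 (n = 59) in YPS128. So the gap of 0.23 in BC187 was not seen among ORFs of at most 300 bases. The gap of 0.20 in BY4743 was smaller among them, at 0.21 against 0.15. In NCYC3290 and YPS128 a gap of the same sign was seen. The class was not matched in length within itself. In BC187, 33 of its 124 suffix genes had at most 150 bases, against 3 of its 59 other genes. Short suffix genes were still called lower less often than short other genes, at 14.5% against 27.1% in BC187 and 4.62% against 16.9% in BY4743. Within the suffix genes, length had a Spearman correlation with the log2 fold change of -0.12 for BY4743 (n = 156), -0.16 for BC187 (n = 151), -0.094 for NCYC3290 (n = 154) and -0.15 for YPS128 (n = 152), across genes of the same libraries. The plasmid insert was not sequenced here, and the part of insert length in these changes was not tested.

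**Figure D2:**
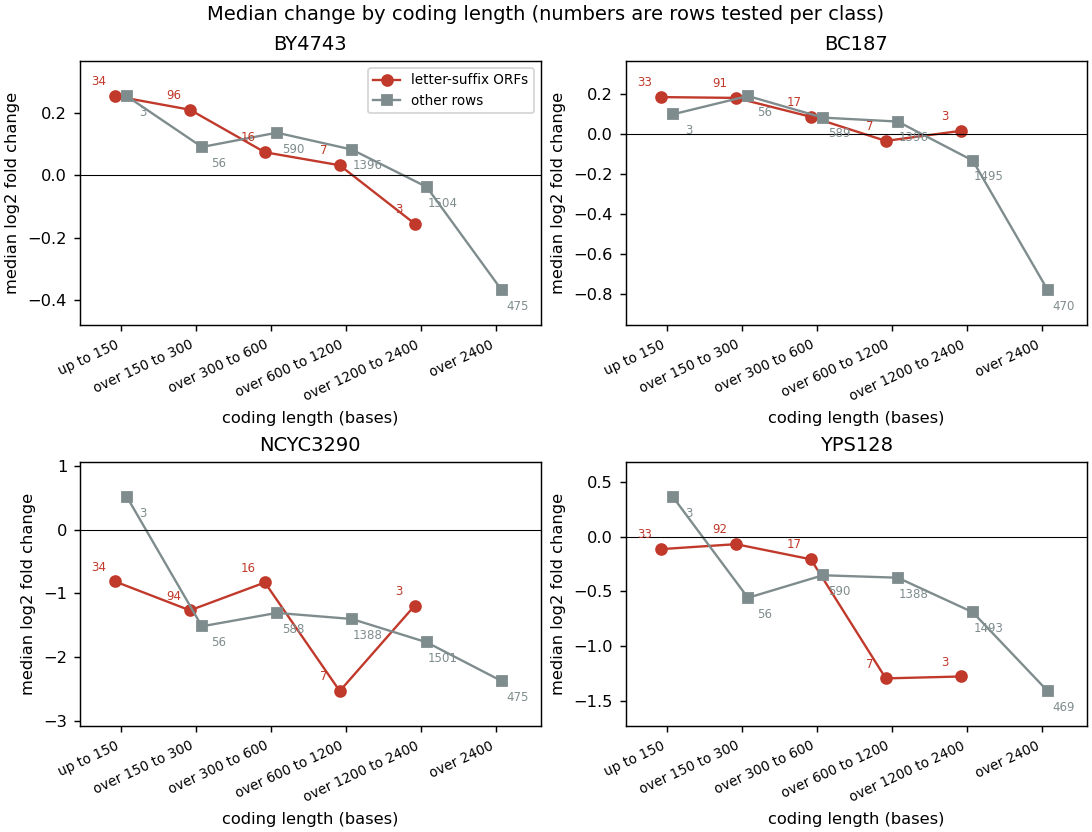
Median log2 fold change, Gen10 over Gen0 (vertical axis), by coding length class in bases (horizontal axis), for letter-suffix ORFs (red circles) and other rows (grey squares) in each strain, with the number of rows tested beside each point. The grey medians fall to -0.78 in BC187 and -0.37 in BY4743 in the class over 2400 bases, and the red medians of the classes up to 300 bases lie at or above 0.18 in both strains, where classes of 3 to 7 rows are thin.

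Plasmids of 4 suffix genes were higher at Gen10 in 3 strains, and no gene was higher in all 4. LSM3 encodes an Sm-like protein of the ring that binds U6 spliceosomal RNA and of the ring that takes part in mRNA decay. In YPS128 it had 2755, 1532 and 2682 normalised reads at Gen10, against 328, 479.9 and 421 at Gen0 (log2 fold change 2.50 ± 0.33, SE; FDR 0.00596). In BC187 the values were 579, 547 and 546 at Gen10, against 339.8, 309.6 and 317 at Gen0, a log2 fold change of 0.79 ± 0.05 (FDR 2.51e-06). BY4743 had 514, 520.1 and 477 at Gen10, against 364, 364 and 354 at Gen0 (0.48 ± 0.05, FDR 0.000404). The Gen10 and Gen0 values did not overlap in these 3 strains. In NCYC3290 they did, with 267, 142 and 715 at Gen10, against 368, 351 and 365 at Gen0. The call in YPS128 was lost without Gen0 replicate 1, at 2.37 (FDR 0.0661). The F test of a strain difference gave an adjusted p of 0.00453 for LSM3 (edgeR).

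COX19, which encodes a small intermembrane-space protein needed to assemble cytochrome c oxidase, was the largest rise of the set in YPS128. It had 3052, 3278 and 3687 normalised reads at Gen10, against 345, 463 and 445 at Gen0 (log2 fold change 2.998 ± 0.27, FDR 0.00132). The rises in BY4743 and BC187 were smaller. BY4743 had 502, 426 and 381 at Gen10, against 344, 351 and 341 at Gen0 (0.34 ± 0.10, FDR 0.0276), and BC187 had 525, 558 and 554 at Gen10, against 526, 479 and 471 at Gen0 (0.15 ± 0.05, FDR 0.0377), where the highest Gen0 value lay just above the lowest Gen10 value. The BC187 call was lost with library sizes from all reads, at 0.10 (FDR 0.128). For COX19, fits without 1 library were followed for the YPS128 call only. NCYC3290 ranged from 112 to 1211 at Gen10, against 384 to 435 at Gen0, and was not called. The strain difference had an adjusted p of 0.00416 (edgeR). The plasmid of KNS1, the nearest gene to COX19 at 776 bases, was lower in YPS128, at -3.08 (FDR 0.0363).

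The uncharacterised ORFs YBL071C-B and YAL016C-B were the other genes higher in 3 strains. YBL071C-B, whose ORF of 99 bases is printed above, had 299, 405 and 301 normalised reads at Gen10 in BC187, against 152, 142 and 183 at Gen0 (log2 fold change 1.07 ± 0.14, FDR 0.000174). In BY4743 it had 433, 413 and 416 at Gen10, against 256, 271 and 275 at Gen0 (0.65 ± 0.05, FDR 0.000117), and in YPS128 209.7, 375 and 332, against 114, 89.7 and 102 (1.59 ± 0.34, FDR 0.0263). None of these groups overlapped. The YPS128 call of YBL071C-B was lost without any 1 of the 3 Gen0 libraries (FDR 0.102 to 0.119). Its nearest annotated gene on the chromosome, RPS8A at 332 bases, has a plasmid of its own, which moved the other way, with log2 fold changes of -1.44 in BC187, -0.83 in BY4743 and -2.72 in YPS128 (FDR 0.117 in YPS128). YAL016C-B had log2 fold changes of 0.59 ± 0.05 in BY4743, 0.36 ± 0.12 in BC187 and 1.16 ± 0.25 in YPS128. Its call in BC187 was lost without Gen10 replicate 2, Gen10 replicate 3 or Gen0 replicate 2 (FDR 0.0569 to 0.0828), and its call in YPS128 without Gen10 replicate 1 or any 1 of the Gen0 libraries (FDR 0.0536 to 0.122). With library sizes from all reads, the log2 fold changes of LSM3, COX19, YBL071C-B and YAL016C-B in YPS128 turned negative.

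**Figure D3:**
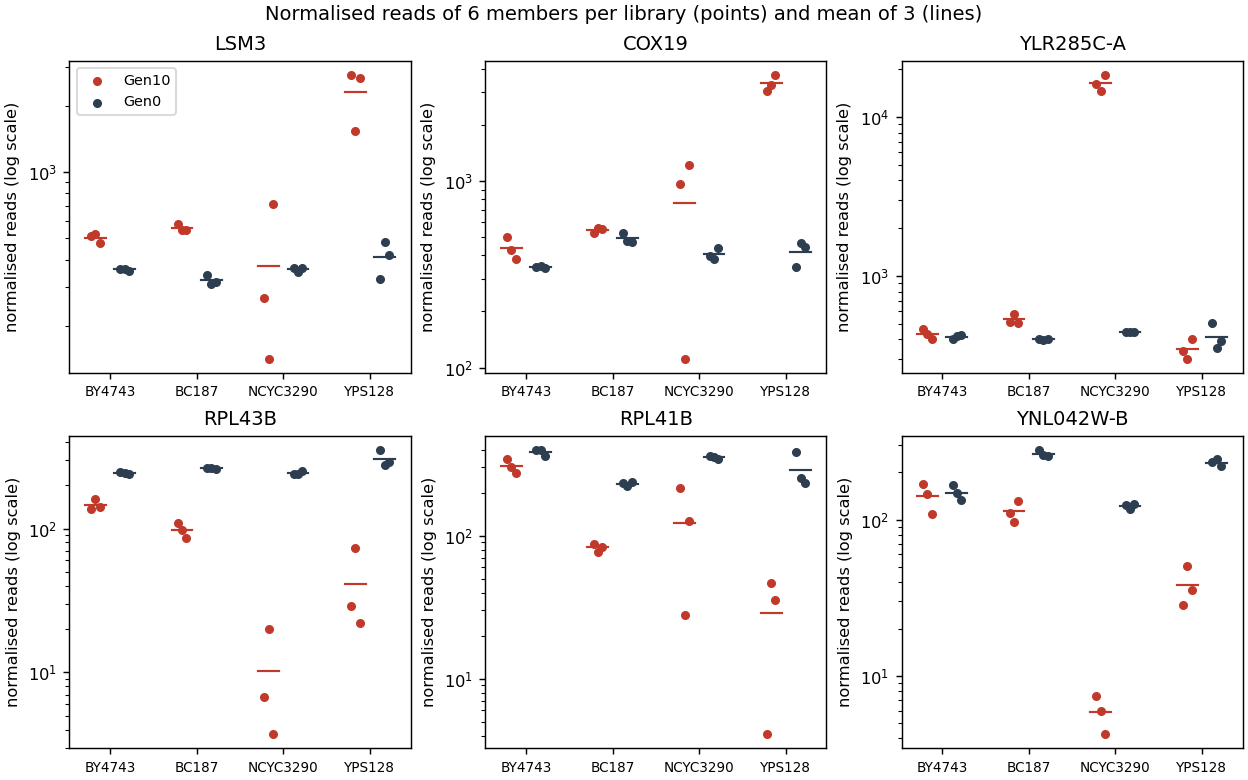
Normalised reads per library on a log axis (vertical) in each strain (horizontal) for 6 genes of the set, with Gen10 (red, left) and Gen0 (dark blue, right) libraries as points and the mean of 3 as a line. COX19 and LSM3 stand highest in YPS128 at Gen10, at 1532 to 3687, YLR285C-A in NCYC3290, at 14677 to 18353, and RPL43B lies below its Gen0 values in each strain; the YPS128 rises of COX19 and LSM3 turned with library sizes from all reads.

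The largest rise of the whole set was seen in a single strain. YLR285C-A, an uncharacterised ORF of 171 bases on chromosome XII, had 16092, 14677 and 18353 normalised reads at Gen10 in NCYC3290, against 448, 443 and 442 at Gen0. Its log2 fold change was 5.20 ± 0.60 (FDR 0.00634), and it was the only suffix gene called higher in that strain. In BC187 it had 514, 581 and 509 at Gen10, against 401, 394 and 405 at Gen0 (0.42 ± 0.06, FDR 0.00027). The values overlapped in BY4743, with 467, 434 and 402 at Gen10 and 404, 419 and 425 at Gen0, and in YPS128, with 339.7, 302 and 400.2 at Gen10 and 504, 354 and 391 at Gen0. The strain difference had an adjusted p of 6.82e-10, the smallest in the set (edgeR F test). The ORF lies 22 bases from NNT1 on the opposite strand, and the plasmid of NNT1 itself had a log2 fold change of -1.46 in NCYC3290 (FDR 0.182).

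Another uncharacterised ORF, YIL046W-A, was the most abundant suffix gene of every BC187 and YPS128 library, and is described after its values were seen. In YPS128 it had 5208, 4109 and 5639 normalised reads at Gen10, against 2074, 1546 and 1707 at Gen0 (log2 fold change 1.49 ± 0.29, FDR 0.0205). In BC187 it had 1518, 1508 and 1513 at Gen10, against 1042, 1037 and 1076 at Gen0 (0.52 ± 0.04, FDR 1.03e-05). In BY4743 and NCYC3290 it had at most 51.5 normalised reads in any library. The rise in YPS128 turned with library sizes from all reads, to -1.70. Starting levels of a plasmid thus differed between strains before any growth in salt, as the values of OST5, PMP2 and SBH2 below also show.

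Plasmids of RPL43B, which encodes a protein of the large cytosolic ribosomal subunit, were lower at Gen10 in all 4 strains, the only gene of the set with that pattern. It had 137, 161 and 141 normalised reads at Gen10 in BY4743, against 248, 241 and 238 at Gen0 (log2 fold change -0.73 ± 0.08, FDR 0.000561), and 109, 98.4 and 86.2 in BC187, against 264, 263 and 261 (-1.43 ± 0.09, FDR 2.12e-06). In NCYC3290 it had 6.76, 19.9 and 3.75 at Gen10, against 239.9, 238 and 251 at Gen0 (-4.65 ± 0.92, FDR 0.0093). In YPS128 it had 28.8, 72.8 and 22.0, against 349, 275 and 291 (-2.87 ± 0.53, FDR 0.0178). Every Gen10 library lay below every Gen0 library of its strain. Genes lower in all 4 strains made up 0.621% of the suffix genes tested, against 1.48% of all genes tested in any strain. The size of the fall differed between strains (adjusted p = 0.000218, edgeR F test). The call in YPS128 was lost without any 1 of the 3 Gen0 libraries, at -2.95 to -2.77 (FDR 0.0811 to 0.1). The call in NCYC3290 was lost with TMM factors, at -2.65 (FDR 0.0732), and the value stayed negative in each strain under the 3 other scalings run.

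RPL41B, the smallest ORF of the set at 78 bases, encodes a ribosomal protein of 25 amino acids that is rich in lysine and arginine. It was lower in 3 strains. In BC187 it had 87.7, 77.2 and 83.1 normalised reads at Gen10, against 232, 224 and 236 at Gen0 (log2 fold change -1.48 ± 0.08, FDR 7.3e-07), and in YPS128 4.12, 46.5 and 35.7, against 382, 251 and 232 (-3.32 ± 0.80, FDR 0.0354). The fall in BY4743 was smaller, with 342, 300.4 and 276 at Gen10, against 394, 395 and 360.2 at Gen0 (-0.32 ± 0.09, FDR 0.0231). In NCYC3290 the log2 fold change was -1.52 ± 0.83 (FDR 0.224), and it was positive with TMM and DESeq2 scaling, at 0.63 and 1.19. The call in BY4743 was lost without Gen10 replicate 2 or 3 or Gen0 replicate 1 or 2 (FDR 0.0507 to 0.0918), and the call in YPS128 without Gen10 replicate 3 or any 1 of the Gen0 libraries (FDR 0.0718 to 0.152). The nearest gene, SRF1 at 625 bases, had a plasmid that was lower too, at -2.26 in BC187 (FDR 1e-06) and -3.46 in YPS128 (FDR 0.0157).

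With RPL36B and the mitochondrial ribosomal genes MRPL15 and RTC6, which were grouped with these after values were seen, 5 of the 176 suffix genes encode ribosomal proteins. The suffix rows that were set aside by name are not counted here and lie among the other rows. Of the 5, 3 were lower and 1 higher for BY4743, 4 lower and 1 higher for BC187, 2 lower and 0 higher for NCYC3290, and 2 lower and 0 higher for YPS128. Among all genes tested the shares called lower were 19.5%, 38.1%, 26.1% and 8.47% in these strains, and with 5 genes a count of 2 is little to set against them. RPL36B had 60.5, 47.6 and 49.7 normalised reads at Gen10 in BC187, against 178, 174 and 165 at Gen0 (-1.71 ± 0.11, FDR 2.74e-06). In NCYC3290 it was down to 2 reads in 3 Gen10 libraries, against 2732 reads in the 3 Gen0 libraries. At matched depth that is a 96.9-fold lower level (exact 95% interval 26.8 to 801, for counting error only). MRPL15 was the largest fall of the set in BY4743, with 15.4, 17.8 and 36.7 at Gen10, against 142, 141 and 131 at Gen0 (-2.56 ± 0.32, FDR 0.000884). RTC6 went the other way, with log2 fold changes of 0.52 ± 0.06 in BY4743 and 0.32 ± 0.05 in BC187. The median of the 5 was -0.38 for BY4743, -1.43 for BC187, -1.89 for NCYC3290 and -3.25 for YPS128, and with TMM factors and DESeq2's size factors it was positive in NCYC3290, at 0.32 and 1.11, and negative in YPS128, at -2.75 under each.

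The other genes lower in 3 strains were LSB3, YKL033W-A and YNL042W-B. LSB3, whose SH3-domain protein binds an activator of actin assembly, is one of the few long genes of the set. It had 11.9, 17.4 and 14.9 normalised reads at Gen10 in BC187, against 83.6, 74.3 and 68.7 at Gen0 (log2 fold change -2.36 ± 0.17, FDR 5.18e-06), and 5.43, 11.5 and 9.08 in BY4743, against 23.7, 22.6 and 25.8 (-1.47 ± 0.32, FDR 0.00951). In NCYC3290 3 reads were left in the 3 Gen10 libraries, against 1355 at Gen0, a 32.0-fold lower level (exact 95% interval 10.9 to 156, for counting error only). YKL033W-A, a member of the haloacid dehalogenase superfamily, had log2 fold changes of -0.69 ± 0.19 in BY4743, -1.38 ± 0.17 in BC187 and -5.61 ± 1.14 in NCYC3290 (FDR 0.00992, and 0.0575 with TMM factors). Its BY4743 call was lost without any 1 of the 3 Gen0 libraries (FDR 0.0762 to 0.0993).

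YNL042W-B is an uncharacterised ORF that shares 84 bases with a proline tRNA gene on the same strand, so its insert holds at least part of that gene's sequence. It was lower in BC187, with 111, 96.5 and 132 normalised reads at Gen10, against 277, 259.5 and 255 at Gen0 (log2 fold change -1.22 ± 0.11, FDR 1.87e-05). In NCYC3290 it had 7.51, 5.98 and 4.28, against 125, 116 and 125 (-4.37 ± 0.73, FDR 0.00656, and 0.0551 with TMM factors), and in YPS128 28.4, 50.5 and 35.7, against 232, 244 and 219 (-2.59 ± 0.44, FDR 0.0143). The YPS128 call was lost without any 1 of the 3 Gen0 libraries (FDR 0.0823 to 0.0949). In BY4743 the groups overlapped, with 169, 146 and 109 at Gen10 and 165, 148 and 133 at Gen0 (-0.07 ± 0.17, FDR 0.76). The strain difference had an adjusted p of 3.31e-06 (edgeR F test). Of the genes lower in both BY4743 and BC187, YAR035C-A, an ORF of 81 bases, had 35.7, 34.9 and 37.2 at Gen10 in BY4743, against 188, 179.7 and 184 at Gen0 (-2.35 ± 0.10, FDR 4.58e-06), while the plasmid of its neighbour YAT1, at 80 bases, had -0.10 (FDR 0.596). YNL067W-B was lower in BC187, with 53.4, 51.2 and 54.0 at Gen10, against 255, 236 and 244 at Gen0 (-2.21 ± 0.08, FDR 9.3e-08), and was not called in the other 3 strains.

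**Figure D4:**
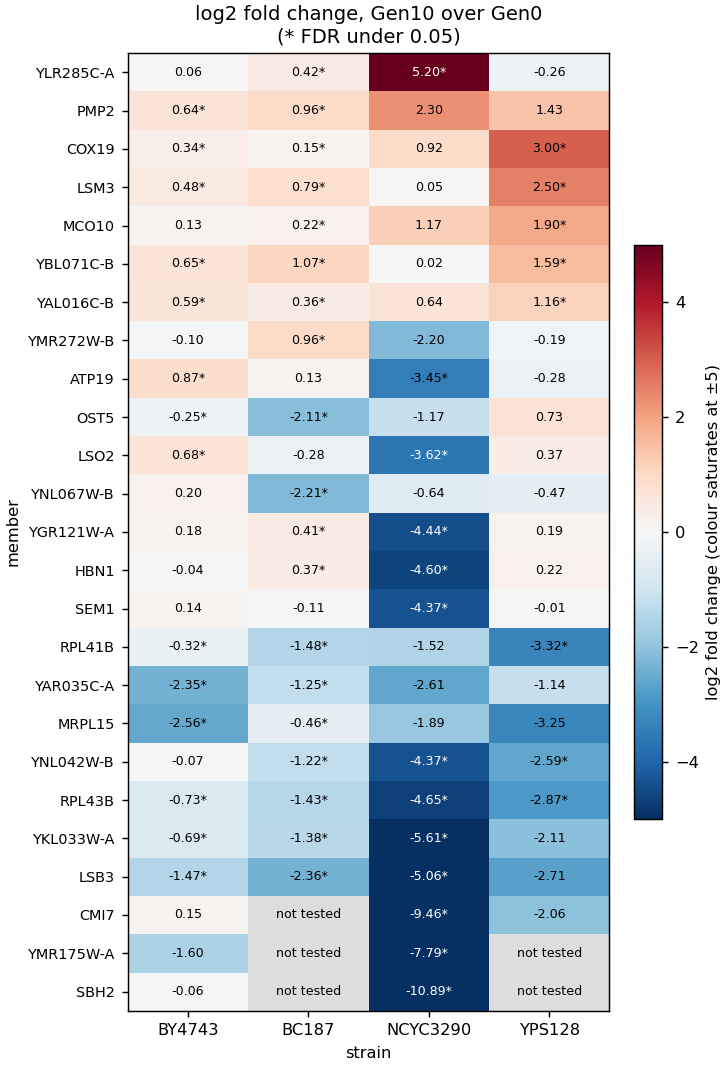
Log2 fold change, Gen10 over Gen0, of 25 named genes of the set (rows) in the 4 strains (columns), printed in each cell and coloured from blue (lower) to red (higher), with a star for an FDR under 0.05. RPL43B is starred and lower in each of the 4 columns, YLR285C-A reaches 5.20 in NCYC3290, and the YPS128 values of COX19, LSM3, MCO10, YBL071C-B and YAL016C-B turned negative with library sizes from all reads.

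A group of 10 genes of the respiratory chain, its assembly and the ATP synthase held calls in 1 direction only in BY4743 and BC187. Of the 10, all tested, 6 were higher and 0 lower for BY4743, 8 higher and 0 lower for BC187, 0 higher and 2 lower for NCYC3290, and 2 higher and 0 lower for YPS128. Among all genes tested 18.2%, 28.5%, 1.89% and 4.11% were called higher, and 19.5%, 38.1%, 26.1% and 8.47% lower. The 2 of 10 lower in NCYC3290 were near the share of all genes. The BC187 count was 5 with library sizes from all reads, and here and in the groups below the counts of NCYC3290 and YPS128 follow the scaling. COA6 and COQ21, which were not placed in the group, have related names, after oxidase assembly and coenzyme Q, and were called in BC187 as higher, at 0.75 (FDR 5.36e-05), and as lower, at -0.80 (FDR 2.47e-05). The median log2 fold change of the 10 was 0.25 for BY4743, 0.35 for BC187, -0.16 for NCYC3290 and 0.24 for YPS128, beside 0.20, 0.17, -1.17 and -0.18 over all suffix genes, and with TMM factors it turned positive in NCYC3290, at 1.86, beside 0.85 over all suffix genes. COA2, which helps to assemble cytochrome c oxidase, had 254, 292 and 260.1 normalised reads at Gen10 in BC187, against 142, 145 and 142 at Gen0 (0.91 ± 0.07, FDR 8.07e-06). STF1, which stabilises the complex of the ATP synthase with its inhibitor, had 623, 667 and 713, against 390.2, 380.4 and 349 (0.84 ± 0.06, FDR 6.54e-06). SDH6, an assembly factor of succinate dehydrogenase, had 0.81 ± 0.12 in BC187 and 0.43 ± 0.08 in BY4743. These 3 genes were chosen after their values were seen.

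MCO10 and ATP19, which both belong to the ATP synthase, moved in different strains. MCO10 had 1829.6, 937 and 1488 normalised reads at Gen10 in YPS128, against 356, 386 and 399 at Gen0 (log2 fold change 1.90 ± 0.30, FDR 0.0124), and 379, 393 and 379 in BC187, against 321, 329 and 336 (0.22 ± 0.05, FDR 0.00246). The YPS128 call was lost without any 1 of the 3 Gen0 libraries (FDR 0.0692 to 0.0802). ATP19, the subunit k, was the largest called rise of the set in BY4743, with 85.9, 65.9 and 69.5 at Gen10, against 39.9, 41.1 and 40.3 at Gen0 (0.87 ± 0.15, FDR 0.00374). In NCYC3290 it was lower, with 2.25, 9.97 and 0.535, against 41.3, 38.2 and 36.8 (-3.45 ± 0.99, FDR 0.0365), a call lost with TMM factors and DESeq2's size factors. Its adjusted p for a strain difference was 0.000761 (edgeR F test).

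Of 7 genes of mitochondrial import, shape and upkeep, 3 were higher and 0 lower in BY4743 and 4 higher and 2 lower in BC187, and none was called in NCYC3290 or YPS128, where 18.2% and 28.5% of all genes tested were higher in BY4743 and BC187 and 19.5% and 38.1% lower. RIM1, a single-stranded DNA-binding protein of mitochondrial DNA, was higher in both BY4743 and BC187, at 0.33 and 0.53. MIC10, which shapes the cristae junctions, was higher in BY4743, at 0.27, and lower in BC187, at -0.29. ISD11, a partner of the mitochondrial cysteine desulfurase, was lower in BC187, at -0.77. Of 5 tested genes of the kinetochore, DNA repair and meiosis, 3 were higher in BY4743 (MEI4, NBL1 and MHF2), 1 was higher in BC187 (MHF1, with 2 genes higher under TMM factors and 3 under DESeq2's size factors) and 1 was lower in NCYC3290 (HUG1, -5.17).

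Among genes of transcription, RNA and telomeres the calls ran both ways. In BY4743, 2 of 12 were higher and 1 lower, in BC187 4 of 11 higher and 3 lower, in NCYC3290 0 of 11 higher and 3 lower, and in YPS128 1 of 10 higher and 0 lower. The share of all genes tested called higher was 18.2% in BY4743, 28.5% in BC187 and 4.11% in YPS128. The share called lower was 19.5% in BY4743, 38.1% in BC187 and 26.1% in NCYC3290. The group's count higher in BC187 was 2 with library sizes from all reads. SEM1, a subunit of the proteasome lid that also serves in mRNA export, had 12.8, 11.97 and 4.82 normalised reads at Gen10 in NCYC3290, against 203, 198 and 202 at Gen0 (log2 fold change -4.37 ± 0.79, FDR 0.00728). That call was lost with TMM factors (-2.29, FDR 0.0773). Its groups overlapped in the other 3 strains, where the log2 fold change was between -0.11 and 0.14. The strain difference had an adjusted p of 3.14e-07 (edgeR F test). RPC10, a subunit shared by the nuclear RNA polymerases, was lower in BC187, at -0.23, and in NCYC3290 at -4.34 (lost with TMM factors, FDR 0.152, and DESeq2's size factors, 0.169), and TFB5, of the transcription factor TFIIH, was higher in BY4743 at 0.30 and in BC187 at 0.20 (lost there with library sizes from all reads, FDR 0.0648).

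In the secretory pathway and membranes, 4 of 12 genes were higher and 1 lower for BY4743, 6 of 11 higher and 3 lower for BC187, 0 of 12 higher and 4 lower for NCYC3290, and none of 11 was called for YPS128. Over all genes tested, 18.2% were higher and 19.5% lower in BY4743, and 28.5% higher and 38.1% lower in BC187. The 4 of 12 lower in NCYC3290 were near the 26.1% of all genes tested. PMP2, a regulatory proteolipid of the plasma membrane proton pump, was among the largest rises in BC187, with 50.8, 52.0 and 42.5 normalised reads at Gen10, against 21.6, 21.7 and 31.2 at Gen0 (log2 fold change 0.96 ± 0.19, FDR 0.00186). It was also higher in BY4743, with 267, 297 and 277, against 215, 169 and 153 (0.64 ± 0.13, FDR 0.00664). In NCYC3290 its Gen10 libraries held 619, 2733 and 2.68, against 225, 242 and 214 at Gen0, so the 3 libraries lay on both sides of Gen0. OST5, a subunit of the oligosaccharyltransferase, was lower in BC187 (-2.11 ± 0.47, FDR 0.00391) on 0.339, 0.432 and 0.214 normalised reads at Gen10, against 0.962, 1.51 and 1.75 at Gen0. In BY4743 the same gene had 292, 247 and 269, against 319, 321 and 317 (-0.25 ± 0.07, FDR 0.0325), so the BC187 call, which was lost with DESeq2's size factors (FDR 0.0525), rests on a plasmid that was scarce there from the start.

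Among the 158 genes tested in NCYC3290, 3 had 0 reads in each of its 3 Gen10 libraries. SBH2, a beta-type subunit of an endoplasmic reticulum translocon, had 26.3, 24.6 and 25.3 normalised reads at Gen0, and at a floor of 3 reads per library was at least 7.74-fold lower at Gen10 (FDR 0.00634). CMI7 had 9.27, 6.94 and 12.1 at Gen0 and was at least 2.88-fold lower (FDR 0.00634). YMR175W-A had 2.63, 4.39 and 1.84 at Gen0 (FDR 0.00981), too few for a fold at that depth, and its call was lost with TMM factors (FDR 0.14), with DESeq2's size factors (0.217) and without Gen10 replicate 1 (0.0631) or 3 (0.0859). Without any 1 of the Gen0 libraries YMR175W-A was not tested. SBH2 was at 27.7, 12.2 and 27.0 at Gen10 in BY4743, against 20.6, 23.1 and 26.2 at Gen0, and at most 1.69 normalised reads in any library of BC187 and YPS128. Over all suffix genes with reads in the 3 Gen0 libraries of a strain (161 in each), 6 had no read at Gen10 in NCYC3290, 3 in BC187, 2 in YPS128 and 0 in BY4743. YMR175W-A was among those of NCYC3290, BC187 and YPS128. The genes lost in BC187 and YPS128 had at most 25 reads in any Gen0 library of the strain. YMR175W-A had 1, 11 and 10 reads at Gen0 in BC187 and 8, 10 and 2 in YPS128. The same count was not made over the other rows.

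Among translation and stress genes the calls ran both ways. Of 5 genes of translation and protein modification, 2 were lower and 1 higher in BY4743 and 2 lower and 1 higher in BC187, counts too small to read against the 19.5% and 38.1% of all genes called lower. TMA20, which acts in recycling of ribosomes, had 170.0, 174 and 191 normalised reads at Gen10 in BY4743, against 461, 452 and 378 at Gen0 (log2 fold change -1.27 ± 0.09, FDR 6.17e-05). LSO2, which binds ribosomes in starved cells, was higher in BY4743, with 74.6, 116 and 109.8, against 65.3, 59.4 and 63.0 (0.68 ± 0.18, FDR 0.0219), a call lost without any 1 library but Gen10 replicate 1 (FDR 0.0603 to 0.0898). In NCYC3290 it was lower, with 2.25, 3.99 and 10.2, against 71.2, 86.7 and 52.1 (-3.62 ± 0.81, FDR 0.0141), a call lost with TMM factors. Of 6 genes of the cell wall and stress, 1 was lower and 1 higher in BY4743 and 3 lower and 1 higher in BC187. CCW14, a cell wall mannoprotein, was lower in BC187 at -0.74, and CWP2, another, was higher there at 0.33. TMA20, CCW14 and CWP2 were chosen after their values were seen.

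The 83 uncharacterised ORFs made up the largest group. In BY4743, 27 of 77 tested were higher and 3 lower, and in BC187 39 of 74 were higher and 9 lower, where 18.2% and 28.5% of all genes tested were higher and 19.5% and 38.1% lower. In NCYC3290, 1 of 76 was higher and 8 lower, and in YPS128 3 of 75 higher and 1 lower. Over all genes tested in these strains 1.89% and 4.11% were higher and 26.1% and 8.47% lower. Among the 89 named genes, 25 of 79 were higher and 7 lower in BY4743, and 35 of 77 higher and 19 lower in BC187. The medians of the uncharacterised and the named genes were 0.21 and 0.16 in BY4743 and 0.20 and 0.14 in BC187. YMR272W-B, an uncharacterised ORF of 108 bases, was among the 3 largest rises in BC187, with 209.9, 126 and 121 normalised reads at Gen10, against 90.8, 65.5 and 78.9 at Gen0 (0.96 ± 0.22, FDR 0.00477). Gen10 replicate 1 stood above the others, and without it the log2 fold change was 0.66 (FDR 0.00707). YGR121W-A, another uncharacterised ORF, was higher in BC187, with 498, 476 and 511 normalised reads at Gen10, against 397, 363 and 360.4 at Gen0 (0.41 ± 0.05, FDR 0.000185), and lower in NCYC3290, with 14.3, 3.99 and 4.82, against 179.7, 159 and 174 (-4.44 ± 0.85, FDR 0.00832, and 0.0935 with TMM factors).

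**Figure D5:**
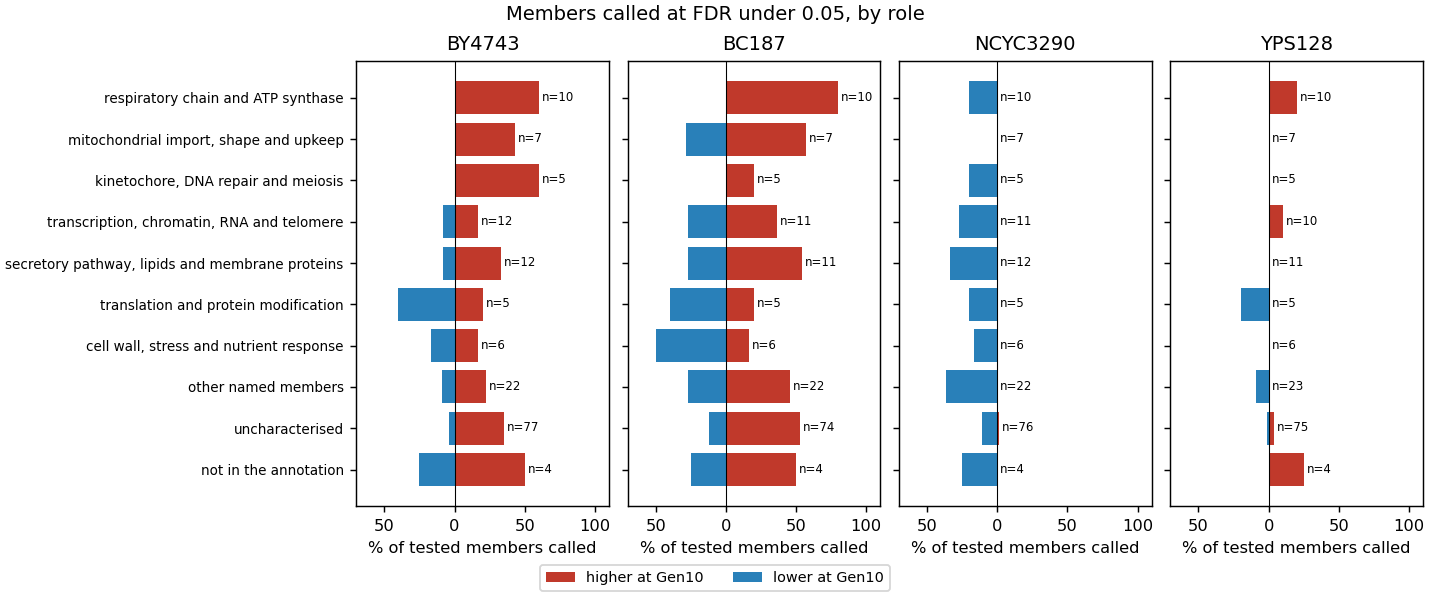
Percent of tested genes called at an FDR under 0.05 (horizontal axis) in each role group (vertical axis) and strain, with higher at Gen10 to the right (red) and lower to the left (blue), and the number tested beside each bar. In BY4743 and BC187, 6 and 8 of 10 respiratory genes were higher and 0 lower (5 in BC187 with library sizes from all reads); calls in NCYC3290 and YPS128 follow the scaling used here, and both shift towards higher with DESeq2's size factors.

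The strains were then compared directly. The strain-by-generation F test called 60 of 161 suffix genes (37.3%), against 41.3% of all genes tested. The shares were thus close, with no test over the list. This test pools the spread of the 4 strains in a single value (coefficient of variation 0.498), which is larger than that of BY4743 and BC187 alone and smaller than that of NCYC3290 (0.855) and YPS128 (0.539). Adjusted p-values of genes whose difference is led by NCYC3290, such as YLR285C-A, SEM1, YGR121W-A and HBN1, thus rest on a spread below that strain's own. Across strains, 135 suffix genes (83.9% of 161) were called in at least 1, against 83.2% of all 4200 genes tested in any strain. Lower calls were shared by 2 strains for 12 genes, by 3 for 4 genes and by 4 for 1 gene, and higher calls by 2 strains for 31 genes and by 3 for 4. In shares, 7.45% were lower in 2 strains, against 16% of all genes tested, 2.48% lower in 3, against 8.02%, 19.3% higher in 2, against 9.21%, and 2.48% higher in 3, against 1.43%. In all 4 strains 0.621% were lower, against 1.48%, and 0% higher, against 0.262%. Of the suffix genes, 14 (8.7%, against 11.4% of all genes) were lower in one strain and higher in another, among them HBN1, a putative nitroreductase. It was higher in BC187, with 255, 214 and 245 normalised reads at Gen10, against 199, 179 and 176 at Gen0 (0.37 ± 0.09, FDR 0.00498), and lower in NCYC3290, with 4.51, 11.97 and 1.61, against 143, 129 and 132 (-4.60 ± 0.96, FDR 0.011, and 0.0747 with TMM factors, 0.0521 without Gen0 replicate 1 and 0.05 without Gen0 replicate 2).

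Log2 fold changes of suffix genes were positively correlated in each pair of strains. The Spearman correlation of log2 fold changes was lowest between BY4743 and BC187, at 0.29 (n = 154), and highest between BC187 and YPS128, at 0.46 (n = 154), across genes that share libraries and depth within a strain. Among the other genes the same pairs had 0.49 and 0.48. A suffix gene's plasmid did not track that of the gene nearest to it on the chromosome, with Spearman correlations of -0.067 for BY4743 (n = 109), 0.066 for BC187 (n = 104), 0.019 for NCYC3290 (n = 106) and 0.006 for YPS128 (n = 103). The other genes were alike in this, at 0.03, 0.028, 0.041 and 0.028 in the same strains. Replicates were also compared without a model. In BY4743 and BC187, 76 suffix genes in each strain had all 3 Gen10 values above all 3 Gen0 values (27.4% of all genes tested in BY4743 and 31.3% in BC187), and 19 and 31 had them below (28.7% and 40.8%). In NCYC3290 4 were above and 95 below (3.45% and 60% of all genes), and in YPS128 21 above and 41 below (9.67% and 45.1%).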

How the data were processed

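Plasmids were isolated from the 24 cultures, and their barcodes were amplified by PCR and sequenced. The values are raw read counts per barcode as the authors deposited them, in one table of 4871 rows, with no column outside the 24 libraries. The tool and settings that assigned reads to barcodes are not given in the sources used here. Library sizes were taken, after the study's methods, over rows with at most 50000 reads in every library, which left out 25 rows, and normalised reads are per 1000000 of that total. Genes were kept by filterByExpr (minimum count 10), and Gen10 was tested over Gen0 within each strain with edgeR 4.0.16 (quasi-likelihood F test, R 4.3.3) and Benjamini-Hochberg adjustment over all genes tested, called at an FDR under 0.05. Differences between strains were tested with an F test of the 3 interaction terms in a joint fit of the 24 libraries. Scripts were tested on simulated data. A fold against 0 reads used a floor of 3 reads per library. The intervals of ratios and the floors cover counting error only, since PCR reads carry no molecular identifiers. The labels number the replicates, and the study's text calls them biological triplicates.

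The members and lists were chosen with earlier results of these data known, and the role groups come from general knowledge. Genes named in full were, in each strain, the 3 largest called rises and the 3 largest called falls without overlap of replicates, those called the same way in at least 3 strains without overlap, and the 5 with the smallest p of the strain difference. A few others were added after their values were seen, as stated. Alternatives were library sizes from all reads, TMM factors, DESeq2 1.42.0, no filter, a replicate block, the study's rounded values with a likelihood-ratio test, summed rows of a gene, the joint fit and leaving out each library. Names, coordinates and sequences were taken from RefSeq's R64 annotation, read with Python 3.11.15.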

Additional observations from a re-analysis of the deposited data

Results flagged for a closer look

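For 15 of the 25 named genes the change between Gen0 and Gen10 differed between the 4 strains, by the edgeR strain-by-generation F test adjusted over all 4215 genes tested. This count follows in part from the choice of genes, since 5 were named for the smallest p of the same test. Over all genes tested 41.3% were called, and 37.3% of the suffix genes. YLR285C-A had the smallest adjusted p, 6.82e-10, with a log2 fold change of 5.20 in NCYC3290 and between -0.26 and 0.42 in the other strains. The test's pooled coefficient of variation, 0.498, lies below the 0.855 of NCYC3290 alone, which bears on this gene and on those that follow. Genes lower in NCYC3290 were SEM1 (adjusted p = 3.14e-07), YGR121W-A (2.02e-06), HBN1 (3.65e-06), SBH2 (0.000136), LSO2 (0.000211), ATP19 (0.000761) and CMI7 (0.0288). In these 7 genes the log2 fold changes of BY4743, where tested, lay between -0.06 and 0.87. COX19 (adjusted p = 0.00416) and LSM3 (0.00453) had their largest rise in YPS128, at 2.998 and 2.50, values that turned negative with library sizes from all reads. RPL43B (0.000218), YNL042W-B (3.31e-06), YKL033W-A (0.0054), LSB3 (0.005) and RPL41B (0.038) had negative log2 fold changes in each strain, except that RPL41B in NCYC3290 was positive with TMM and DESeq2 scaling, at 0.63 and 1.19.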

How the results depend on the processing

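The suffix genes' median minus that of the other genes stayed positive in each strain under every alternative run. A change of scaling moves both medians by about the same amount. The sign of their difference under the other scalings was thus nearly fixed in advance and is no check on it. Leaving out 1 library gave a difference of 0.1405 to 0.2302 in BY4743, 0.2073 to 0.2366 in BC187, 0.3727 to 0.5266 in NCYC3290 and 0.3069 to 0.5984 in YPS128. Counts of calls moved more. With library sizes from all reads, 148 suffix genes were lower in NCYC3290, 149 lower and 0 higher in YPS128, and 158 differed between strains. TMM factors gave 9 lower and 3 higher in NCYC3290, 21 higher in YPS128 and 38 differing, and DESeq2 gave 19 lower and 50 higher in NCYC3290 and 11 lower and 39 higher in YPS128. The joint fit, with 1 spread for all strains, gave 0 lower and 0 higher in BY4743, 7 lower and 1 higher in BC187, 86 lower and 6 higher in NCYC3290 and 23 lower in YPS128. The study's rounded values with a likelihood-ratio test gave 18 lower and 12 higher in YPS128. Without 1 library, the counts ranged from 6 to 16 lower and 26 to 65 higher in BY4743, 26 to 34 and 59 to 73 in BC187, 17 to 56 and 1 to 4 in NCYC3290, and 0 to 46 and 1 to 18 in YPS128, and 51 to 99 differed between strains. The ends of these ranges came without YPS128 Gen10 replicate 2 (46 lower and 18 higher) and YPS128 Gen0 replicate 1 (0 and 1), NCYC3290 Gen10 replicate 3 (56 lower and 99 differing) and Gen0 replicate 1 (17), NCYC3290 Gen10 replicate 1 (4 higher), and BY4743 Gen0 replicate 2 (26 higher) and replicate 1 (6 lower). Replicate numbers did not pair the samples (correlations of same-numbered deviations between -0.417 and 0.117, with 0 or 1 of 3 Gen10 samples per strain closest to its own number), and the replicate block gave 9 lower in YPS128, 33 lower in NCYC3290 and 56 differing. Of the calls of the 25 named genes, 45 were followed over these alternatives. They were calls in a strain the gene was named for, and every call of genes named for a shared direction or a strain difference. Calls of these genes in other strains, such as COX19 in BY4743 and BC187, were not followed. Over 267 gene results from fits without 1 library, 0 of the 45 reversed and 13 were lost at least once. The joint fit of the 24 libraries kept 22 of the 45 calls and lost 23. TMM factors lost 7 and DESeq2's size factors lost 2, and 0 reversed in these fits. With library sizes from all reads 5 YPS128 rises reversed: COX19 (-0.14), LSM3 (-0.74), MCO10 (-1.34), YAL016C-B (-2.01) and YBL071C-B (-1.48). The cause of these shifts was not tested beyond the scaling itself. At medians of 19.5 to 145.5 reads per suffix gene in the Gen10 libraries of NCYC3290, a fall to 0 reads gives only a bound.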
